A study of Mus musculus with 4 samples.

Results

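Kupffer cells were picked from 4 libraries of mouse hepatic nonparenchymal cells by the UMIs (unique molecular identifiers, counted transcript molecules) of resident macrophage genes in each barcode. A barcode was a member when Clec4f, Vsig4 and Timd4 summed to at least 2 UMIs and C1qa, C1qb and C1qc to at least 3. It could carry at most 1 UMI of the lymphocyte genes Cd3d, Cd3e, Cd79a and Ms4a1 and at most 2 of the endothelial genes Ptprb, Kdr and Egfl7. Of 24561 barcodes with at least 200 genes and at most 20% mitochondrial UMIs, 544 were members. These 13 genes chose the cells, so their levels and the share of members are given as a description, with no test.

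The study asked how celecoxib, an inhibitor of cyclooxygenase-2, affects liver fibrosis produced by thioacetamide (TAA). The TAA library came from a mouse that received thioacetamide by intraperitoneal injection over 12 weeks. For the TAA+C7.5 and TAA+C30 libraries, mice were given the same injections and, from week 5, celecoxib by gavage at 7.5 and 30 mg/kg. The control library came from a mouse that received normal saline. All 4 mice were wild type C57B6 animals aged 18 to 20 weeks, and each group was 1 mouse. Treatment and mouse therefore cannot be told apart in any comparison between libraries, and no p-value was computed between them. Ranges in parentheses are exact 95% intervals that cover counting error only.

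Kupffer cells are the macrophages of the hepatic sinusoid, where they remove microbes, aged red cells and debris from portal blood. In the mouse, embryonically seeded Kupffer cells renew themselves in the healthy liver, and monocytes that fill an emptied niche take up much of the resident gene programme, Timd4 late or not at all. Clec4f encodes a galactose-binding lectin found on mouse Kupffer cells. Vsig4 encodes a complement receptor that captures bacteria from blood, and Timd4 a phosphatidylserine receptor for dying cells. The C1q genes encode the subunits of the first complement component and are shared by most tissue macrophages.

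The TAA library held 162 members and the TAA+C7.5 library 43. The TAA+C30 library held 38 and the control library 301. Clec4f was detected in 87.0% of members from TAA, 97.7% from TAA+C7.5, 71.1% from TAA+C30 and 97.7% from control. Vsig4 was detected in 86.4%, 83.7%, 89.5% and 96.0% of them, in the same order of libraries. Timd4 was the rare gene of the 3, detected in 20.4% of TAA, 25.6% of TAA+C7.5, 10.5% of TAA+C30 and 45.8% of control members. All 3 genes were seen together in 32, 11, 4 and 131 members, and Vsig4 alone in 21, 1, 11 and 4. The gate therefore admitted cells that differed in the resident genes they carried, and a larger share of the TAA and TAA+C30 members entered without Clec4f.

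A threshold set the edge of the class. Just inside it, with a sum of 2 resident UMIs, lay 3, 0, 1 and 9 barcodes of TAA, TAA+C7.5, TAA+C30 and control. Just outside it, with a sum of 1, lay 31, 2, 4 and 11 barcodes that met every other condition. Sums of 6 or more were held by 147, 34, 30 and 248 members. The limit on endothelial genes left out 6, 1, 0 and 35 barcodes that passed both sums, and the mitochondrial limit left out 3, 0, 0 and 76.

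Genes outside the gate were checked against the label. In each library the member sum carried Cd5l, a secreted scavenger-family protein of resident macrophages, at 5388 CPM (UMIs of the gene per 1000000 UMIs of the summed members) in TAA, 6936 in TAA+C7.5, 4108 in TAA+C30 and 5816 in control. The macrophages used for comparison passed the same limits but had no UMI of Clec4f, Vsig4 or Timd4. They are called C1q macrophages here and numbered 655, 164, 445 and 36. Their Cd5l was 398, 366, 102 and 134 CPM. Folr2, a folate receptor, stood at 561, 760, 491 and 1074 CPM in Kupffer cells and at 22.4, 15.7, 8.65 and 24.8 CPM in C1q macrophages. Both genes were higher in the Kupffer cells of all 4 libraries.

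The promoter windows of 2 gate genes and of 2 genes that were high in the TAA members are shown because these genes recur in the results that follow. They are RefSeq sequences on GRCm38.p6, 250 bases before to 50 after the gene start, written 5′ to 3′ on the gene's strand. Clec4f lies at chr6:83656067-83656366 on the minus strand, Timd4 at chr11:46810549-46810848, Gpnmb at chr6:49036268-49036567 and Trem2 at chr17:48346151-48346450, each of these 3 on the plus strand. Capitals mark TGCTGA, the core recognised by Maf factors, in the first pair, and TGANTCA, the AP-1 motif, in the second pair, on either strand.
Clec4f: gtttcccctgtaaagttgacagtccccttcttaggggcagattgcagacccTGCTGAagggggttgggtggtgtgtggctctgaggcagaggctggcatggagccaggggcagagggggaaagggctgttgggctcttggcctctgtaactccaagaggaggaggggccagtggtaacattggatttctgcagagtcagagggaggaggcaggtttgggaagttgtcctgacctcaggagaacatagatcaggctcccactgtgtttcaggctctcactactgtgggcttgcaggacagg
Timd4: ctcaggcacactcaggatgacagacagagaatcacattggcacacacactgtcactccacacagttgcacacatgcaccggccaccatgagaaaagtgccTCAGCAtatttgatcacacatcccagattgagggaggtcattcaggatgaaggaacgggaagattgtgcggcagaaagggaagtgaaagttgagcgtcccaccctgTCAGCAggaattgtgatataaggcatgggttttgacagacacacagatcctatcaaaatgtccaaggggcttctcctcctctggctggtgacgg
Gpnmb: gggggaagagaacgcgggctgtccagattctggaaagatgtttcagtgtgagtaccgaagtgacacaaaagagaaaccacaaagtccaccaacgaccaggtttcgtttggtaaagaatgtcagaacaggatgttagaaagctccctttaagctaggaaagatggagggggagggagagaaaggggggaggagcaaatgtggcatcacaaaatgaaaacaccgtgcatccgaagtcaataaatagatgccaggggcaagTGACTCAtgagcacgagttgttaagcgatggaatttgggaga
Trem2: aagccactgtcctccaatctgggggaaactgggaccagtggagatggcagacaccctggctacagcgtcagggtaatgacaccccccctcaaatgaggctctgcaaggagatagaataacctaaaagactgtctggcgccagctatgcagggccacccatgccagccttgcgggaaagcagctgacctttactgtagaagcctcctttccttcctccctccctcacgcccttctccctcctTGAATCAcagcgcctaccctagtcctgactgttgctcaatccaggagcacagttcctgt
Clec4f held 1 match to TGCTGA and Timd4 held 2, written here as TCAGCA. Gpnmb and Trem2 held 1 match each to TGANTCA, written TGACTCA in Gpnmb and TGAATCA in Trem2. Neither motif was present in every gene of its group. Of other Kupffer genes looked up, Vsig4, Fcna and Folr2 held TGCTGA. Marco, Cd163, C6, Kcna2, Pcolce2, Slc16a9, Slc45a3 and Tspan15 did not. S100a4 and 1 window of Runx3, genes lower in Kupffer cells than in other macrophages, also held TGCTGA. Of other genes high in the TAA members, Mmp13 and 1 window each of Mmp12 and Ms4a7 held TGANTCA, while Cd63, Cx3cr1, Capg and Vim did not. TGANTCA was also held by Tspan15 and 1 window of Folr2, higher in Kupffer cells than in other macrophages, and by AA467197, lower there. Of 32851 mouse promoter windows of this length, 19.5% held TGCTGA and 7.81% held TGANTCA on either strand. A match describes the letters and is not a measured binding site.

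The libraries differed in depth and in their other cells. They held 6915, 6117, 6284 and 6583 barcodes with between 17888247 (TAA+C7.5) and 48419305 (TAA) UMIs. Members had medians of 13090.5 UMIs in TAA, 4476 in TAA+C7.5, 7445 in TAA+C30 and 1526 in control, so the control members were the shallowest although they were the most numerous. The members' median mitochondrial share was 2.66% in TAA, 1.89% in TAA+C7.5, 2.36% in TAA+C30 and 8.82% in control. Between 9 and 14 barcodes were shared by each pair of libraries, and none of these was a member in both. Scrublet called 3 of the 544 members doublets, all in control. The member sums held 2065505, 236739, 260712 and 633275 UMIs.

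Kupffer cells were a smaller share of the TAA library than of the control library. They made up 2.49% (2.12 to 2.90) of kept barcodes in TAA and 5.20% (4.64 to 5.80) in control, 2.09 times lower in TAA (1.72 to 2.55). The TAA library was 3.61% endothelial by gate, and the control library 47.9%. Without endothelial cells the shares were 2.58% in TAA and 9.98% in control, 3.87 times lower (3.18 to 4.71). Among Kupffer cells and C1q macrophages together, Kupffer cells were 19.8% of 817 cells in TAA and 89.3% of 337 cells in control, 4.50 times lower (3.71 to 5.49). The share of all kept barcodes depended on the mitochondrial limit. With a limit of 10% it was 2.51% in TAA and 3.79% in control, a ratio of 0.663. With a limit of 5%, an alternative chosen after seeing the data, it was 2.39% (132 of 5524) and 2.57% (59 of 2297), a ratio of 0.930.

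The celecoxib libraries held fewer Kupffer cells still. They made up 0.707% (0.512 to 0.951) of kept barcodes in TAA+C7.5, 3.52 times lower than in TAA (2.50 to 5.05). In TAA+C30 they made up 0.615% (0.436 to 0.843), 4.04 times lower than in TAA (2.83 to 5.92). The comparisons share the TAA library. Among macrophages of both classes the picture differed by dose. Kupffer cells were 20.8% of 207 cells in TAA+C7.5, a ratio of 1.05 to TAA (0.730 to 1.47), and 7.87% of 483 cells in TAA+C30, a ratio of 0.397 to TAA (0.271 to 0.568). TAA+C30 over TAA+C7.5 had a ratio of 0.870 (0.547 to 1.38) over all kept barcodes and 0.379 (0.238 to 0.600) among macrophages.

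**Figure D1:**
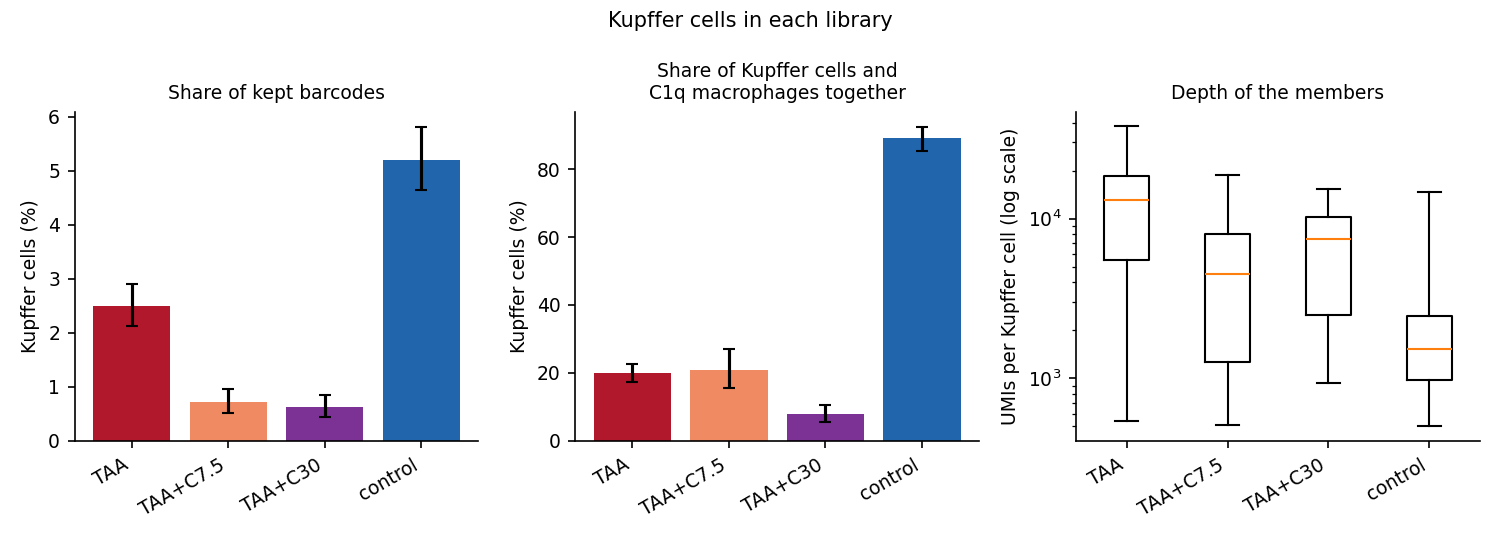
Bars give Kupffer cells as a percentage of kept barcodes (left) and of Kupffer cells and C1q macrophages together (middle), with exact 95% intervals; boxes (right) give UMIs per member on a log axis, with median, quartiles and full range. Control has the largest shares, 5.20% and 89.3%, and the shallowest members, with a median of 1526 UMIs.

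Thioacetamide against saline asks which genes differ in the Kupffer cells of the fibrotic liver. The TAA members had higher levels of genes known from scar-associated macrophages. They had lower levels of several resident genes, among them Cd163, C6 and Kcna2. A gene counted as called when its CPM, with 10 CPM added on both sides, differed at least 2-fold between the sums. Of 10404 genes whose UMIs summed to at least 10 over the pair, 10.1% were called, 5.22% higher and 4.86% lower. The median log2 ratio of all of them was -0.02. Higher calls were 51.8% of all calls and 67.1% with TMM scaling, which shifted the median to 0.09.

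Scar-associated macrophage genes had 15 of 21 measured members called higher and none lower, with a median log2 ratio of 1.47. Gpnmb, a transmembrane glycoprotein of lipid-loaded macrophages, had 387 CPM (360 to 415; 799 UMIs) in TAA, 54.9 in TAA+C7.5, 710 in TAA+C30 and 3.16 (0.382 to 11.4; 2 UMIs) in control. The TAA to control ratio was 122 (33.8 to 1010), with both control UMIs in 1 member. Thinned to 1000 UMIs each, 15.5% of TAA members carried Gpnmb, against 0% of 223 control members, where the interval reaches 1.64%. C1q macrophages also had Gpnmb, at 539, 527 and 365 CPM in the 3 thioacetamide libraries, and no UMI in control.

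Trem2, a lipid-sensing receptor of macrophages, had 417 CPM in TAA, 317 in TAA+C7.5, 859 in TAA+C30 and 23.7 in control. It was 17.6 times higher in TAA than in control. Cd63, a tetraspanin of lysosomes and endosomes, had 341, 228, 713 and 9.47 CPM in the same order. Fabp5, a fatty acid carrier, had 221, 127, 587 and 7.90 CPM. All 3 genes were lowest in control and highest in TAA+C30. In C1q macrophages of TAA and control, Trem2 had 579 and 54.5 CPM, Cd63 445 and 129 CPM, and Fabp5 443 and 19.8 CPM. Spp1, which encodes osteopontin, was not called: its levels were 101 CPM (87.9 to 116) in TAA and 79.0 (58.6 to 104) in control, and its level in C1q macrophages was 997 CPM in TAA.

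Matrix and growth factor genes had 10 of 27 members called higher and 3 lower. The macrophage elastase gene Mmp12 had 721 CPM in TAA, 232 in TAA+C7.5, 798 in TAA+C30 and 20.5 in control, which made the TAA level 35.1 times the control level. The collagenase gene Mmp13 had 106, 76.0, 7.67 and 7.90 CPM. It was detected in 34 TAA members and in 4 of TAA+C7.5, where 1 member held 13 of the 18 UMIs. Mmp14, a membrane-bound protease, had 112 CPM in TAA and 15.8 in control. In C1q macrophages Mmp12 had 167 CPM in TAA and 4.96 in control, from 1 UMI in control, while Mmp14 had 177 and 154 CPM. The 3 genes called lower were Fn1, Timp3 and Ecm1. Over 50% of the control UMIs of Fn1 and Ecm1 came from a single barcode.

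That barcode was the deepest control member, with 14624 UMIs, and Scrublet called it a doublet. It carried 6 UMIs of Timd4 and none of Clec4f or Vsig4. It held over 50% of the control UMIs of Slpi, Fn1, Prg4, Alox15, Saa3 and Thbs1, 6 of the 12 lowest genes named by rule. Their log2 ratios of -5.87 for Slpi, -4.63 for Fn1, -4.21 for Prg4, -3.79 for Alox15, -2.54 for Saa3 and -1.98 for Thbs1 thus rest on that barcode. The other 6 genes were Cd163, Mup20, Ptgis, Kcnj16, Kcna2 and C6. Mup20 encodes a major urinary protein made by hepatocytes and is not on the hepatocyte list that the naming rule left out. It had 4 UMIs in TAA and 52 in control.

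**Figure D2:**
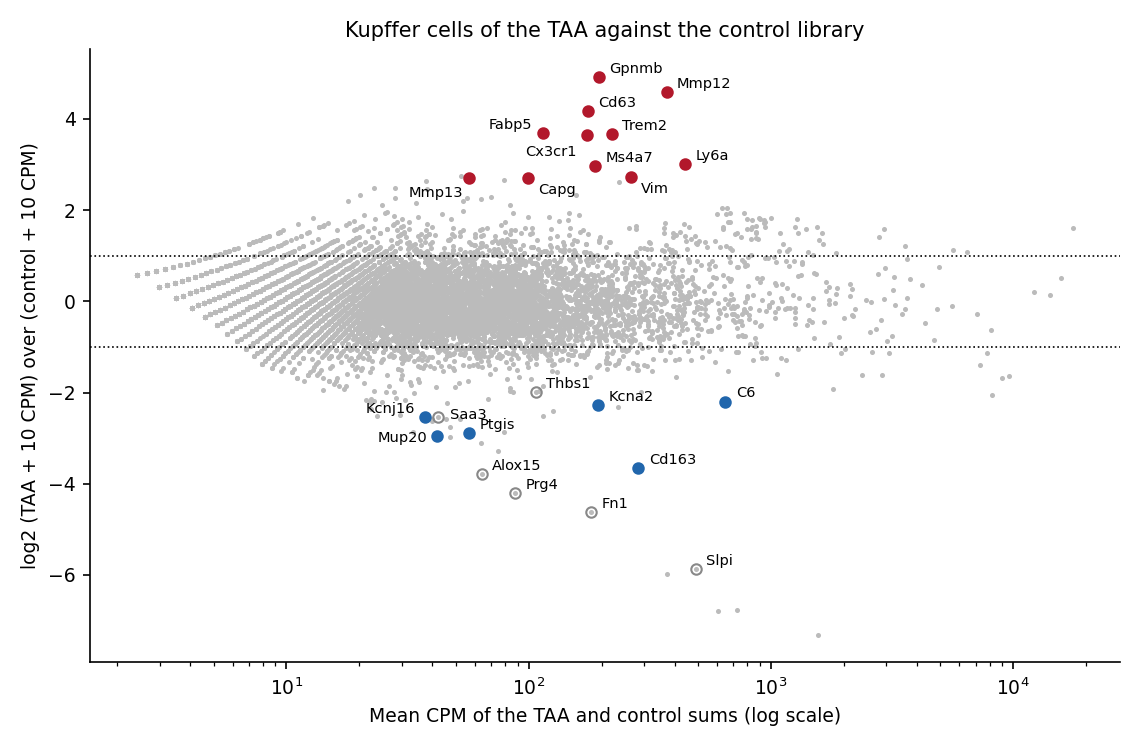
Each point is a gene; the vertical axis gives the log2 ratio of TAA over control sums with 10 CPM added, the horizontal axis the mean CPM on a log axis, and dotted lines the 2-fold limits. Gpnmb stands highest at 4.91 among named genes, and filled blue points such as Cd163 at -3.66 lie lowest among genes not resting on 1 barcode. Open circles mark named genes lower in TAA with over 50% of control UMIs in 1 barcode. Gpnmb, with both control UMIs in 1 member, is drawn filled.

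Other Kupffer identity genes had 8 of 33 members called lower in TAA and 1 higher, with a median log2 ratio of -0.23. Cd163, the scavenger receptor for haemoglobin bound to haptoglobin, had 32.9 CPM (25.6 to 41.7) in TAA, 279 (216 to 355) in TAA+C7.5, 34.5 (15.8 to 65.5) in TAA+C30 and 534 (478 to 594) in control. The TAA level was 16.2 times below control (12.5 to 21.4). Kcna2, a potassium channel gene, had 60.0, 101, 42.2 and 327 CPM in the same order. Fcna, which encodes ficolin A of the lectin complement pathway, had 671, 1140, 460 and 1644 CPM. Both were highest in control and lowest in TAA+C30.

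Marco, a scavenger receptor for bacteria, followed another order. It had 433 CPM (405 to 463) in TAA and 625 (529 to 734) in TAA+C7.5. In TAA+C30 it had 80.5 (49.9 to 123) and in control 417 (368 to 470), so the TAA and control intervals overlapped. Of the 21 UMIs in TAA+C30, 12 lay in 1 of 3 members. With cells thinned to 1000 UMIs before the gate, the log2 ratio of Marco in TAA over control was 1.28. Nr1h3, the LXR-alpha gene that maintains Kupffer identity, had 443, 482, 372 and 521 CPM and was within 2-fold in each comparison. Spic, a transcription factor of iron-recycling macrophages, had 122, 106, 80.5 and 163 CPM. Maf, a macrophage transcription factor gene, had 652 CPM in TAA and 1546 CPM in control and was called lower.

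Complement genes had 5 of 13 members called lower and none higher in TAA, with a median log2 ratio of -0.74. C6, a component of the membrane attack complex, had 226 CPM (206 to 247) in TAA, 283 in TAA+C7.5, 165 in TAA+C30 and 1072 (993 to 1156) in control. The TAA level was 4.75 times below control (4.22 to 5.36). Cd55, the decay-accelerating factor, had 4.36 CPM in TAA and 75.8 in control. C2 and C3 were also called lower.

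Iron and heme genes had 2 of 21 members called higher and 4 lower in TAA, with a median log2 ratio of -0.01. The lower members were Cd163, Hmox1, Slc40a1 and Tfrc. Hmox1, the heme-degrading enzyme, had 751 CPM in TAA, 908 in TAA+C7.5, 552 in TAA+C30 and 2866 in control. Slc40a1, the iron exporter ferroportin, had 1663, 2665, 1024 and 3589 CPM, and the transferrin receptor gene Tfrc had 40.7, 29.6, 19.2 and 107 CPM. The higher members encode the ferritin chains that store iron: Fth1 had 8802 CPM in TAA and 4142 in control, and Ftl1 had 7754 and 3545 CPM. Haemoglobin and other erythroid transcripts summed to 16.0 CPM in TAA and 6522 CPM in control, with 1 control member holding 1685 of the 1966 control UMIs of Hbb-bs. The part of red cell RNA in these differences was not tested. In C1q macrophages Fth1 had 12930 CPM in TAA and 5402 in control, Ftl1 8470 and 4123 CPM, and Hmox1 279 and 233 CPM.

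Inflammatory genes had 12 of 29 members called higher and 1 lower, with a median log2 ratio of 0.67. Il1a, an alarmin cytokine, had 238 CPM in TAA and 55.3 in control. Tnf had 196 and 47.4 CPM, and the neutrophil chemokine Cxcl2 had 1326 and 414 CPM. Il1b, the inflammasome-processed cytokine, had 949 and 433 CPM. The T cell chemokine Cxcl10 had 230 and 60.0 CPM. Interferon-response genes had 6 of 26 called higher and none lower, led by the ubiquitin-like Isg15 with 143 CPM in TAA and 25.3 in control. Immediate early genes, which also respond to tissue dissociation, had 5 of 22 called higher and none lower, among them Atf3 with 425 and 128 CPM and Egr1 with 643 and 251 CPM.

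Lipid and lysosome genes were called in few members. Apoe, the apolipoprotein that carries cholesterol out of macrophages, was the 1 of 21 LXR and cholesterol genes called higher, with 26624 CPM in TAA and 8687 in control. Of 23 lysosome genes, Cd63 and the protease gene Ctsd were called higher, Ctsd with 4428 CPM in TAA and 1459 in control. Of 16 MHC class II genes, Ciita, their transactivator, was called higher, with 59.5 and 15.8 CPM. None of 20 cell cycle genes was called in either direction. In C1q macrophages Apoe had 32744 CPM in TAA and 12934 in control, Ctsd 2573 and 372 CPM, and Ciita 109 and 243 CPM.

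Cx3cr1, the fractalkine receptor of monocyte-derived cells, had 330 CPM in TAA, 114 in TAA+C7.5, 560 in TAA+C30 and 17.4 in control. Ccr2, the receptor that draws monocytes from blood, had 60.5, 38.0, 46.0 and 9.47 CPM, with 6 UMIs in control. Further genes named highest were Ly6a, Ms4a7, Vim and Capg, with log2 ratios between 2.71 and 3.01. Mrc1, the mannose receptor, had 561 CPM in TAA and 1344 in control and was called lower. Stab2, a hyaluronan scavenger receptor that sinusoidal endothelium expresses strongly, had 39.2 and 126 CPM.

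Transcripts of other cell types moved with this comparison. Endothelial markers had 14 of 15 members called lower in TAA and summed to 183 CPM in TAA, 194 in TAA+C7.5, 123 in TAA+C30 and 974 in control. Tek was at 0 in TAA. Hepatocyte markers had 9 of 15 measured members called lower and summed to 532, 494, 790 and 1047 CPM, and Cyp2e1 was at 0 in TAA. Their part in the lower genes was not tested. Cdh5, listed among Kupffer genes and also an endothelial cadherin, had 335, 439, 153 and 990 CPM in Kupffer cells.

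Depth also differed between these members. Among those with 1000 to 5000 UMIs, 36 in TAA and 197 in control, the log2 ratios of C6 at -0.68, Fcna at -0.56, Cdh5 at -0.55, Slc40a1 at -0.60, Maf at -0.89, C3 at -0.98, Tfrc at -0.35, Apoe at 0.61, Ftl1 at 0.89, Il1b at 0.90 and Atf3 at 0.77 were below the 2-fold limit with the same sign. Ciita turned to -0.73 there. Among members with at most 5% mitochondrial UMIs, Fth1 stood at 0.87, Ftl1 at 0.93, Cxcl2 at 0.88, Il1b at 0.86, Atf3 at 0.90 and Egr1 at 0.77, and C3 turned to 0.51. Both restrictions were chosen after seeing the data. With cells thinned before the gate, Slc40a1 at -0.80, Fcna at -0.86, Tfrc at -0.74, Mrc1 at -0.97, Hpgd at -0.92, Ftl1 at 0.87 and Ciita at 0.82 were also below the limit.

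**Figure D3:**
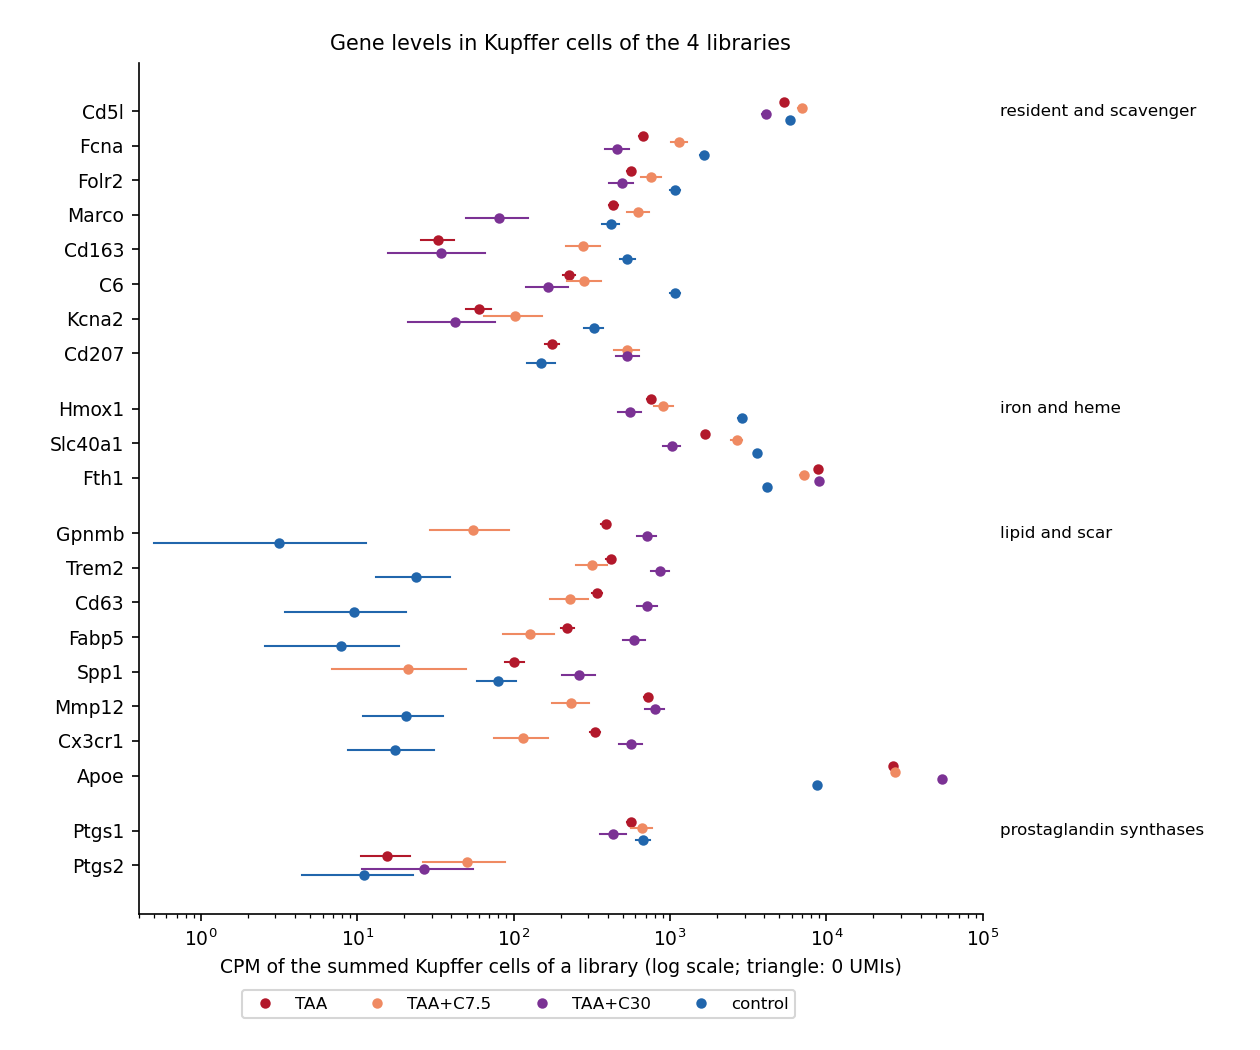
Points give the CPM of the summed Kupffer cells of each library on a log axis, with exact 95% Poisson intervals as lines, for genes grouped by role. Gpnmb, Trem2, Cd63, Fabp5 and Cx3cr1 are lowest in control, C6, Kcna2 and Hmox1 are highest there, and Cd207 is higher in both celecoxib libraries than in TAA and control.

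Celecoxib at 7.5 mg/kg was set against thioacetamide alone with 43 members in TAA+C7.5 and 162 in TAA. Both celecoxib libraries held under 50 members, so genes of the fixed lists alone are given for them. Of 9970 genes tested, 5.16% were called, 1.59% higher in TAA+C7.5 and 3.56% lower, with a median log2 ratio of -0.06. Scar-associated genes had none of 21 called higher and 4 called lower. Gpnmb had 54.9 CPM (29.2 to 93.9; 13 UMIs) in TAA+C7.5 and 387 (360 to 415) in TAA, 7.04 times lower (4.10 to 13.3). Mmp12 was 3.11 times lower (2.37 to 4.14) and Spp1 4.79 times lower (2.02 to 14.9). Spp1 rested on 5 UMIs in TAA+C7.5, and its log2 ratio was -0.43 with cells thinned before the gate and -0.23 with equal weight per cell, which ended the call. In C1q macrophages Gpnmb was 527 CPM in TAA+C7.5 and 539 in TAA.

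Kupffer identity genes had 2 of 33 called higher and 1 lower in TAA+C7.5. Cd163 had 279 CPM in TAA+C7.5 and 32.9 in TAA, 8.47 times higher (5.94 to 12.1). Cd207, which encodes langerin, had 528 and 177 CPM, 2.98 times higher (2.41 to 3.66). The log2 ratio of Cd207 was 1.52 in these sums, but 0.087 with cells thinned before the gate and 0.68 among members with 1000 to 5000 UMIs, so its call depended on depth settings. Slco2b1 was the member called lower, with 0 UMIs in TAA+C7.5 and 32 in TAA, and was not called after thinning. Inflammatory genes had 4 of 29 called higher and 2 lower. Cxcl1, a neutrophil chemokine, had 224 CPM in TAA+C7.5 and 39.2 in TAA, 5.71 times higher (3.96 to 8.17), while Ccl2, a monocyte chemokine, had 71.8 and 173 CPM, 2.41 times lower (1.49 to 4.19). Of 26 interferon-response genes none was called higher and 3 lower, among them Ifi44 with 29.6 and 93.0 CPM. Of 26 matrix and growth factor genes none was called higher and 7 lower. Cell cycle genes had 1 of 20 called higher and 4 lower, led by the microtubule regulator Stmn1 with 3 UMIs, all in 1 member, in TAA+C7.5 and 193 in TAA. In C1q macrophages Cxcl1 had 144 CPM in TAA+C7.5 and 59.9 in TAA, Cd207 119 and 51.7 CPM, and Ccl2 83.6 and 93.6 CPM.

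Celecoxib at 30 mg/kg was set against the same TAA library with 38 members in TAA+C30. Of 9959 genes, 5.17% were called, 1.03% higher in TAA+C30 and 4.14% lower, and the median log2 ratio was -0.12, a general shift against which the members are read. Scar-associated genes had 6 of 21 called higher and none lower, with a median of 0.24. Fabp5 had 587 CPM in TAA+C30 and 221 in TAA, 2.66 times higher (2.20 to 3.20). Cd9, a tetraspanin, had 410 and 181 CPM, 2.27 times higher (1.81 to 2.82). Trem2 had 859 and 417 CPM, 2.06 times higher (1.77 to 2.39), while in C1q macrophages it was 613 and 579 CPM. Apoe had 54746 CPM in TAA+C30 and 26624 in TAA, 2.06 times higher (2.02 to 2.09). Spp1 was 2.58 times higher (1.93 to 3.40), but a single member held 51.5% of its TAA+C30 UMIs, and after thinning of cells its log2 ratio was -3.29. Thinning also ended the calls of Fabp5 at 0.90, Cd9 at 0.74, Trem2 at 0.98 and Apoe at 0.85. Among members with 1000 to 5000 UMIs, 14 in TAA+C30 and 36 in TAA, Fabp5 had a log2 ratio of -1.31 and Cd9 of 0.14.

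Of the identity and inflammatory lists, 3 and 6 genes were called lower in TAA+C30 than in TAA, beside 4.14% of all genes tested. Marco had 80.5 CPM in TAA+C30 and 433 in TAA, 5.38 times lower (3.50 to 8.73), with the TAA+C30 UMIs in 3 members. It was 1 of 3 identity genes of 33 called lower, with Pcolce2 and Cdh5, while Cd207 was called higher, at 533 and 177 CPM, 3.01 times (2.46 to 3.67). Cd163 stood at 34.5 and 32.9 CPM, a ratio of 1.05 (0.460 to 2.11), but 1 member held 6 of the 9 TAA+C30 UMIs. Its log2 ratio was -1.03 with equal weight per cell and -3.51 with cells thinned before the gate. Among members with 1000 to 5000 UMIs it was -3.53. Thinning ended the calls of Pcolce2 at -0.10 and Cdh5 at -0.23, and among members with 1000 to 5000 UMIs Pcolce2 stood at 0.89. Inflammatory genes had 1 of 29 called higher and 6 lower, with a median of -0.58. Il10, the anti-inflammatory cytokine, had 26.8 CPM in TAA+C30 and 104 in TAA, 3.86 times lower (1.84 to 9.71), from 7 UMIs in 3 TAA+C30 members. Il1b had 449 and 949 CPM, 2.11 times lower (1.75 to 2.57), and the inflammasome sensor gene Nlrp3 had 72.9 and 191 CPM, 2.62 times lower (1.65 to 4.39). Mmp13 had 2 UMIs in TAA+C30 and 219 in TAA. After thinning, Nlrp3 at -0.71 and Mmp13 at -0.88 were no longer called. In C1q macrophages Il10 had 16.0 CPM in TAA+C30 and 51.8 in TAA, and Il1b 2042 and 2811 CPM. The heat shock gene Hspa1a had 967 and 354 CPM in Kupffer cells and 1506 and 516 CPM in C1q macrophages. Its log2 ratio in Kupffer cells was 1.42, against -0.0289 after thinning, 0.63 among members with a Clec4f UMI and 0.21 among those with 1000 to 5000 UMIs, so the call was lost under each of them.

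The doses were also set against each other, with 38 members in TAA+C30 and 43 in TAA+C7.5. Of 5978 genes tested, 10.2% were called, 3.93% higher in TAA+C30 and 6.22% lower. The members differed in resident genes, with Vsig4 alone detected in 11 of TAA+C30 and 1 of TAA+C7.5. The part of this difference in the values below was not tested. Scar-associated genes had 11 of 19 called higher and none lower, with a median of 1.10 beside -0.10 for all genes. Gpnmb had 710 CPM in TAA+C30 and 54.9 in TAA+C7.5, 12.9 times higher (7.37 to 24.7). Kupffer identity genes had none of 31 called higher and 8 lower, with a median of -0.36. Cd163 was 8.08 times lower in TAA+C30 (4.01 to 18.4) and Marco 7.76 times lower (4.90 to 12.9). The TAA+C30 value of Cd163 rested on 9 UMIs in 2 members, and that of Marco on few members, as given above. A single TAA+C7.5 member held 57.4% of that library's Cd63 UMIs, and another gene of the scar list, Fabp5, rested mostly on the same cell.

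Cyclooxygenase genes were described in every library because celecoxib acts on their products. Ptgs1, the constitutive cyclooxygenase gene, had 564 CPM (532 to 597) in TAA, 659 (560 to 771) in TAA+C7.5, 433 (357 to 521) in TAA+C30 and 673 (610 to 740) in control. Thinned to 1000 UMIs, 41.0%, 44.1%, 44.4% and 46.2% of members carried it. Ptgs2, the inducible gene whose product celecoxib inhibits, had 32, 12, 7 and 7 UMIs, or 15.5 CPM (10.6 to 21.9), 50.7 (26.2 to 88.5), 26.8 (10.8 to 55.3) and 11.1 (4.44 to 22.8). Thinned shares of Ptgs2 were 0.621%, 8.82%, 0% and 1.35% of members, beside 0.930%, 0.381%, 1.39% and 0.355% of B cells. B cells serve here as a measure of free RNA, at the same 1000 UMIs per cell. The Ptgs2 share was thus below that level in TAA and TAA+C30, where the interval of 0% reaches 9.74%, and above it in TAA+C7.5 and control. The TAA+C7.5 value rested on 34 cells and the control value on 223, with 12 and 7 Ptgs2 UMIs in all members of these libraries. The difference from B cells was not tested.

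Of 23 measured prostanoid and leukotriene genes, Ptgs1 and Ptgs2 included, 2 were called higher and 5 lower in TAA against control. Of the 5, Alox15 and Alox5, which encode lipoxygenases, had all of their 81 and 10 control UMIs in 1 barcode each, and without Scrublet doublets their log2 ratios were 0 and 0.068. Hpgd, the enzyme that inactivates prostaglandins, had 541 CPM in TAA, 743 in TAA+C7.5, 510 in TAA+C30 and 1293 in control, 2.39 times lower in TAA (2.18 to 2.62). Ptgis, the prostacyclin synthase gene, had 12 UMIs in TAA, 5 in TAA+C7.5, 0 in TAA+C30 and 68 in control. In the celecoxib comparisons the list had 1 of 20 called higher, Ptgs2 itself, and 2 lower in TAA+C7.5, and none higher and 1 lower of 20 in TAA+C30. Of all genes tested, 1.59% were called higher and 3.56% lower in TAA+C7.5, and 1.03% and 4.14% in TAA+C30. The Ptgs2 call was lost with cells thinned before the gate, where its log2 ratio was 0.67 in place of 1.25.

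The TAA members varied among themselves with the resident genes they carried. Clec4f and Timd4 were both detected in 33 members, Clec4f without Timd4 in 108, and Vsig4 without Clec4f in 21. Their median depths were 12237, 12852 and 15756 UMIs. Marco had 1699 CPM (1568 to 1838) in the first subset, 201 (178 to 226) in the second and 0 in the third, where 0 UMIs allow up to 10.6 CPM. Cd163 had 133, 14.1 and 0 CPM, and C6 had 550, 195 and 2.86 CPM. All 3 genes stood highest where Timd4 was detected.

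Gpnmb, Cx3cr1 and Apoe stood highest in the members with Vsig4 and no Clec4f. Gpnmb had 147 CPM (110 to 192) with Clec4f and Timd4, 317 (287 to 348) with Clec4f and no Timd4 and 911 (813 to 1016) in the members with Vsig4 and no Clec4f. Cx3cr1 had 81.7, 294 and 733 CPM, and Apoe had 18158, 23128 and 49033 CPM. Trem2 had 316 and 317 CPM in the first pair of subsets and 911 CPM in the third. Ccr2 had 2.72, 74.9 and 65.9 CPM. The subsets were formed on gate genes of these same cells, so the values are a description without a test.

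**Figure D4:**
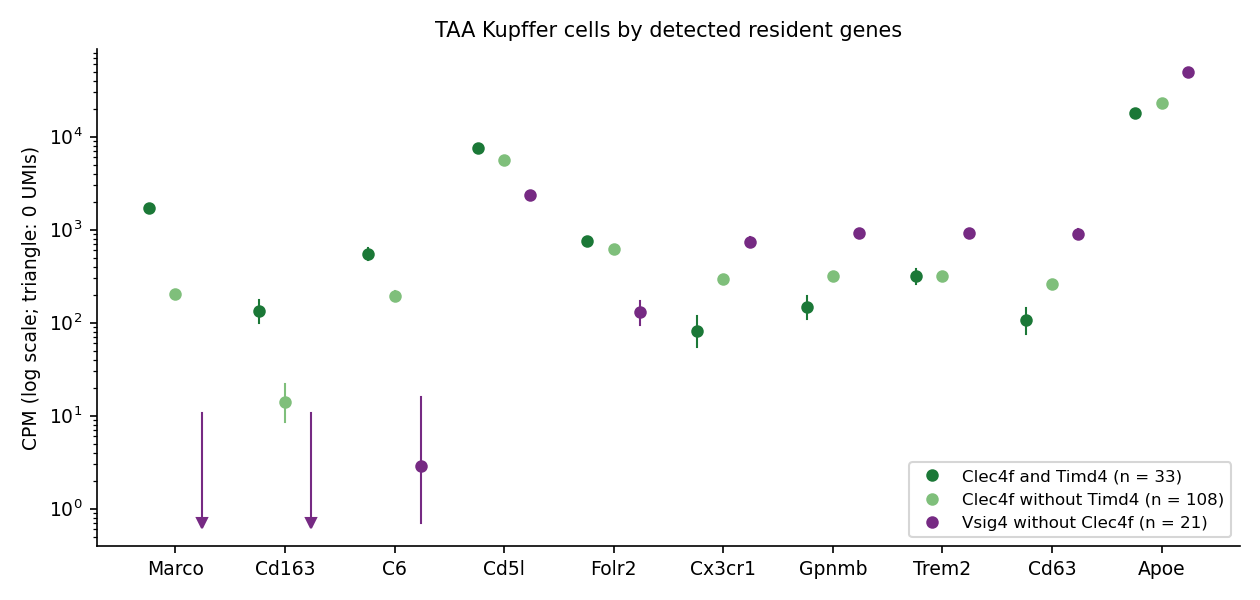
Points give the CPM of summed TAA members in 3 subsets by detected resident genes, with exact 95% Poisson intervals, on a log axis; triangles mark 0 UMIs. Marco, Cd163 and C6 are highest in the 33 members with Clec4f and Timd4, and Gpnmb, Trem2, Cd63, Cx3cr1 and Apoe in the 21 with Vsig4 and no Clec4f.

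Kupffer cells and C1q macrophages of the same mouse could be compared across mice. Sums of both classes in the 4 libraries were fitted with edgeR's quasi-likelihood test with library as a block, leaving 3 residual degrees of freedom, and p-values were adjusted by Benjamini-Hochberg. Gate genes were left out. Both classes were separated by resident genes, so a gene that merely accompanies these in the cell is also called. At an adjusted p under 0.05, 16.4% of 8553 genes were called, 7.61% (651) higher in Kupffer cells and 8.83% (755) lower. Without the TAA library the counts were 308 and 251, and without the TAA+C30 library 457 and 485.

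Marco rose most, with a log2 difference of 9.05 (SE 0.33, adjusted p = 1.49e-09 by edgeR's quasi-likelihood test). It had 433, 625, 80.5 and 417 CPM in Kupffer cells and 0.726, 1.05, 0 and 0 CPM in C1q macrophages. Other Kupffer identity genes had 23 of 33 members higher and none lower. C6 followed Marco with a difference of 6.95, then Pcolce2, Cd163, Kcna2 and Fcna with 6.84, 6.66, 6.58 and 6.37. Slc16a9, Paqr9, Folr2, Slc45a3, Tspan15 and Cdh5 complete the 12 highest, each higher in all 4 libraries.

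Genes of other roles also rose in Kupffer cells. LXR and cholesterol genes had 9 of 21 higher and none lower, including Nr1h3 at 1.73, Abca1 at 1.20 and the apolipoprotein gene Apoc1 at 2.96. Apoe itself was not called, at -0.30 (adjusted p = 0.480 by edgeR). Lysosome genes had 8 of 23 higher and none lower, with the cathepsin genes Ctsb at 1.19 and Ctsl at 1.32. Complement genes had 6 of 11 higher and 2 lower, C3 at -3.23 and the C5a receptor gene C5ar1 at -0.70. Iron and heme genes had 9 of 20 higher, among them Slc40a1 at 3.65 and Hmox1 at 1.80, and 4 lower. Scavenger receptor genes had 10 of 26 higher and 5 lower, the lower ones including the Fc receptor gene Fcgr2b at -2.96.

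Lower in Kupffer cells were genes of monocytes and antigen presentation. Classical monocyte genes had 13 of 17 lower and none higher. Ccr2 fell by 4.18 on the log2 scale (SE 0.29), with 60.5, 38.0, 46.0 and 9.47 CPM in Kupffer cells and 706, 528, 674 and 525 CPM in C1q macrophages. Ly6c2 stood at -5.33 and S100a4 at -4.29. Of 16 MHC class II genes 9 were lower, Cd74 at -1.56 and Ciita at -1.73 among them, and 1 was higher, the protease gene Lgmn. The lowest gene by rule was the dendritic cell chemokine gene Ccl17 at -6.93, a value that rested on control, where C1q macrophages had 411 CPM and Kupffer cells 1.58 CPM. Its log2 ratios with 10 CPM added were -0.33 in TAA, -1.77 in TAA+C7.5, -0.09 in TAA+C30 and -5.19 in control, and DESeq2 gave an adjusted p of 0.0671. AA467197, Runx3, Gpr141, Gpr183, Emb, Tnfsf9 and Napsa were the others, together with Ptgs2. In C1q macrophages AA467197 had 59.5 CPM in TAA, 25.1 in TAA+C7.5, 42.6 in TAA+C30 and 1194 in control. Its log2 difference was -5.18, and -3.13 without the control library.

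The cyclooxygenase genes parted between the classes. Ptgs2 fell by 3.74 (SE 0.36, adjusted p = 8.28e-06 by edgeR) and was lower in Kupffer cells in all 4 libraries, with 295, 173, 222 and 287 CPM in C1q macrophages. Ptgs1 rose by 1.61 (SE 0.18, adjusted p = 2.74e-05 by edgeR) and was higher in all 4. Its levels in C1q macrophages were 174, 171, 141 and 223 CPM. Of the 20 prostanoid and leukotriene genes measured, 7 were higher in Kupffer cells and 4 lower. The receptor genes Ltb4r1 at -3.02 and Ptger4 at -1.56 fell with Ptgs2, and Hpgd at 1.70 and Ltc4s at 1.47 rose with Ptgs1.

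Scar-associated and inflammatory genes were mixed between the classes. Of 21 scar-associated genes 5 were higher in Kupffer cells and 4 lower, with a median of -0.67 beside 0.00 for all genes. Mmp12 at 1.41 and the lipase gene Lpl at 1.62 were higher, and Spp1 at -2.77 and Cd9 at -1.01 were lower. Gpnmb at -0.70 (adjusted p = 0.393 by edgeR) and Trem2 at -0.55 (adjusted p = 0.190) were not called. Of 29 inflammatory genes 3 were higher, Il6 at 3.24, Il10 at 1.49 and Tlr4 at 0.91, and 9 were lower, among them Il1b at -1.87. Interferon-response genes had 1 of 26 higher and 8 lower.

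**Figure D5:**
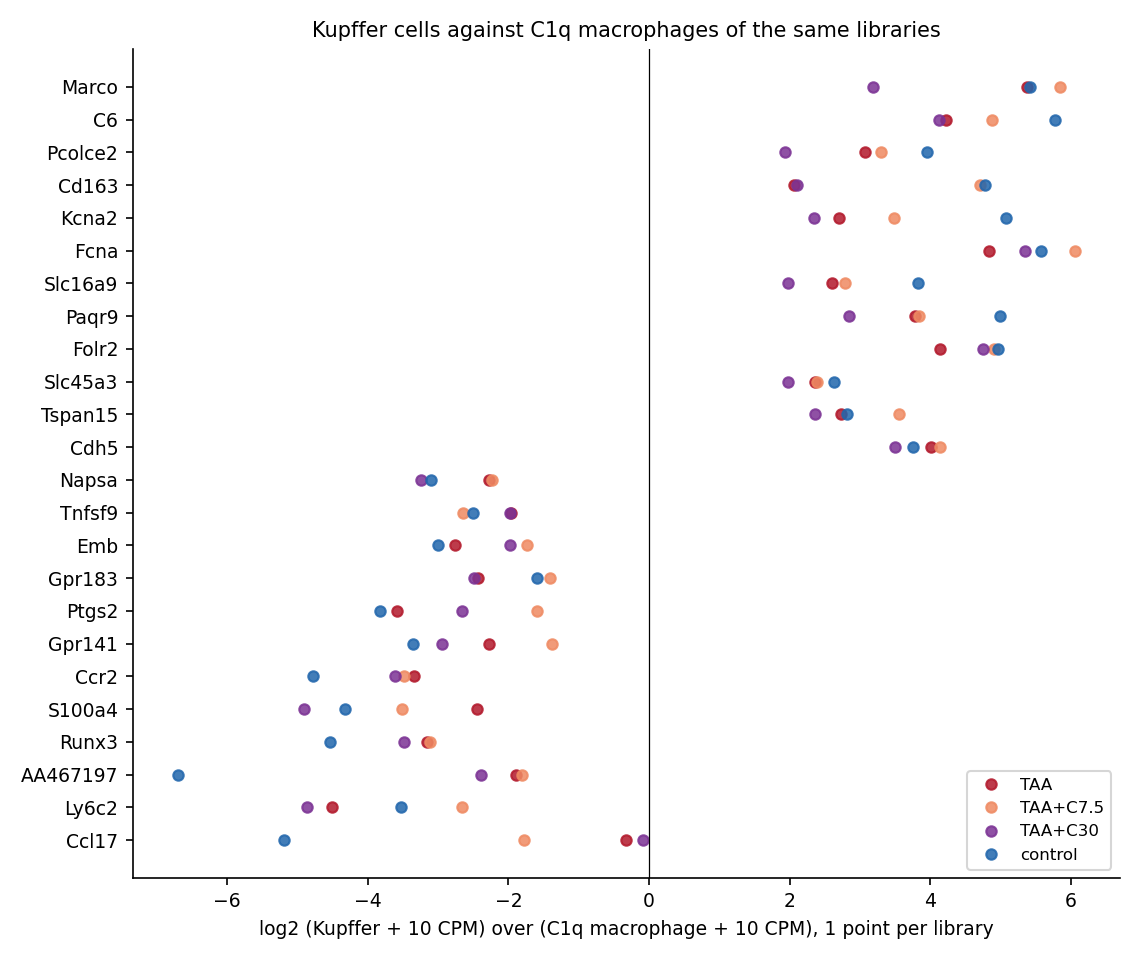
Each point is 1 library, at the log2 ratio of Kupffer over C1q macrophage sums with 10 CPM added, for the 12 highest and 12 lowest genes of the test. Points of all 4 libraries lie right of 0 for the upper genes and left of 0 for the lower ones; Ccl17 lies near 0 in TAA and TAA+C30 and far below it in control.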

How the data were processed

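Hepatic nonparenchymal cells of 4 mice, 1 per group, were profiled in droplet libraries of transcript 3' ends after livers were dissociated, red cells were lysed and hepatocytes were spun down, per the labels' protocols. The deposited matrices hold raw UMI counts per gene and barcode, made by the authors with Cell Ranger 3.1.0 on mm10, per the submitters' processing notes. Annotation and cell-calling settings are not given in the sources used here. Dense text copies of the counts were not used. All 55450 gene IDs were found in GENCODE M21.

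Barcodes were filtered and gated as stated in the report (Python 3.11.15, NumPy 2.4.6, SciPy 1.17.1, pandas 2.3.3). UMIs were summed over members per library and given as CPM of the class total. Genes with at least 10 UMIs in a pair of libraries were compared as log2 ratios with 10 CPM added, which understates the change of low genes. Intervals are exact: Poisson for CPM, Clopper-Pearson for shares and conditional binomial for ratios. For shares of cells with a UMI, cells were thinned to 1000 UMIs, leaving out 1, 9, 2 and 78 members of TAA, TAA+C7.5, TAA+C30 and control. Doublets were called with Scrublet (Scanpy 1.11.5) but kept in the counts. Kupffer cells and C1q macrophages were tested with edgeR 4.0.16 in R 4.3.3, after filterByExpr with TMM scaling; DESeq2 was an alternative. One estimate of the spread served mice that differ in treatment. On data simulated for that test, with 8036 genes fitted, 49 of 49 genes changed 4-fold upward and 21 of 42 changed 2-fold upward were recovered. Of genes changed downward, 35 of 36 were recovered at 4-fold and 10 of 30 at 2-fold. There were 5 false calls. The simulation gave all genes the same spread and no difference between libraries or treatments, so it does not give the error rate in these data.

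Named genes were the gate genes, Ptgs1, Ptgs2, the 12 highest and 12 lowest log2 values of TAA against control and of the class test, and up to 4 members per list and direction. For the 12, the group with more had to hold 50 CPM and 30 UMIs of the gene. Excluded were mitochondrial, ribosomal, haemoglobin, immunoglobulin, T cell receptor, Y-linked and unnamed genes and Xist, hepatocyte genes, and genes under 10% of their CPM in another gated class. Further genes of the fixed lists were named after their values were seen. Some genes that the rule names are not reported here. Members and lists were chosen with earlier results of these data known.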

Additional observations from a re-analysis of the deposited data

Results flagged for a closer look

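In TAA against control, 4 of the genes examined differed at least 2-fold in both Kupffer cells and C1q macrophages, with opposite signs. In both classes the interval of the ratio excluded 1. Other genes had opposite signs with a smaller difference in C1q macrophages, such as Saa3 at -2.54 and 0.97 and Tnf at 1.84 and -0.21. Each of the 4 rests on 1 library per group, and the difference between the classes was not tested. Mmp13 had 106 CPM in TAA and 7.90 in control Kupffer cells, a log2 ratio of 2.70, and 38.7 CPM in TAA and 124 in control C1q macrophages, a log2 ratio of -1.46. The control C1q macrophage value came from 25 UMIs in 36 cells. Slpi had 6.78 CPM in TAA and 973 in control Kupffer cells, a log2 ratio of -5.87, and 20.1 and 0 CPM in C1q macrophages, a log2 ratio of 1.59. Fn1 had 4.84 CPM in TAA and 357 in control Kupffer cells, a log2 ratio of -4.63, and 103 and 34.7 CPM in C1q macrophages, a log2 ratio of 1.34. Over 50% of the control Kupffer UMIs of Slpi and of Fn1 lay in 1 barcode that Scrublet called a doublet. Ciita had 59.5 CPM in TAA and 15.8 in control Kupffer cells, a log2 ratio of 1.43, and 109 and 243 CPM in C1q macrophages, a log2 ratio of -1.09. Its control Kupffer value came from 10 UMIs, and among members with 1000 to 5000 UMIs the Kupffer log2 ratio was -0.73.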

How the results depend on the processing

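No paired analysis was possible because each group held 1 mouse; in the class test, which blocks on library, leaving the block out (no replicate block) gave 492 genes higher and 356 lower, in place of 651 and 755. Leaving out each library in turn gave 308 to 886 higher and 251 to 1063 lower. Under DESeq2 the counts were 522 and 555, and 1 of 24 named genes, Ccl17, lost its call; Ccl17 gave no value without control, without TAA+C7.5 or without the block, and no other tool, filter or comparator setting of that test ended the call of a named gene. The ratio of Kupffer shares, TAA over control, was 0.663 and 0.930 with mitochondrial limits of 10% and 5%, and 0.259 without endothelial cells. Counts of genes called depended on the pseudocount: with 1 CPM, 1428 were higher and 1108 lower in TAA against control, 591 and 1345 in TAA+C7.5 against TAA, and 443 and 1535 in TAA+C30 against TAA. With equal weight per cell the celecoxib counts were 536 and 752 for TAA+C7.5, and 344 and 744 for TAA+C30. With at least 30 UMIs, 69 and 66 genes were higher in TAA+C7.5 and TAA+C30. Thinning cells gave 189 higher in TAA+C30. Alternatives chosen after seeing the data gave, among members with a Clec4f UMI, 162 higher and 671 lower in TAA+C30, and among members with 1000 to 5000 UMIs, 828 lower in TAA, 261 higher in TAA+C7.5 and 220 higher in TAA+C30. Signs turned for Saa3 in TAA against control (0.85 thinned, 0.62 without Scrublet doublets, 0.71 with Clec4f, 0.62 with Clec4f or Vsig4) and for Thbs1 (1.08, 1.26, 0.94 and 1.26 in the same order, 0.35 with equal weight and 1.94 at 1000 to 5000 UMIs). They also turned for Fn1 (0.087 with Clec4f, 0.16 at 1000 to 5000 UMIs), Slpi (2.21 at 1000 to 5000 UMIs), Ecm1 (0.17 thinned, 0.36 at 1000 to 5000 UMIs) and Alox5 (0.068 without doublets and with Clec4f or Vsig4, 0.082 with Clec4f, 0.97 at 1000 to 5000 UMIs). Removal of doublets leaves out the control barcode that held over 50% of the control UMIs of Saa3, Thbs1, Fn1, Slpi and Ecm1. At 1000 to 5000 UMIs signs also turned for Ciita (-0.73), Pros1 (0.22) and Itgam (0.72), and at most 5% mitochondrial UMIs for C3 (0.51). In TAA+C30 against TAA, signs turned for Spp1 (-3.29 thinned, -0.14 at 1000 to 5000 UMIs), Hspa1a (-0.0289 thinned), Fabp5 (-1.31 at 1000 to 5000 UMIs), Dnajb1 (-0.17 with Clec4f), Pcolce2 (0.89 at 1000 to 5000 UMIs) and the interferon list median (0.0457 at 1000 to 5000 UMIs); the cause was not tested. Of the other values of genes and lists recomputed, 1252 kept their call or, for list medians, stayed close to the main value. Another 107 fell below their threshold, 2 passed it (Marco in TAA against control, 1.28 thinned and 1.89 at 1000 to 5000 UMIs) and 8 moved. A turned sign was counted only for called genes and larger list medians, so small values may have turned uncounted. Of 105 gene values between libraries, 70 kept their call with cells thinned before the gate and 66 at 1000 to 5000 UMIs. TAA+C30 against TAA+C7.5 was not recomputed under these settings. The celecoxib libraries held the fewest members, 43 and 38, and the control members had the lowest median depth.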

Other observations

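Surface receptors beyond the resident genes also differed between TAA and control Kupffer cells. Of 26 scavenger and phagocytic genes, 5 were called higher in TAA and 5 lower. Higher were the collectin gene Colec12 (log2 ratio 1.81), the beta-glucan receptor gene Clec7a (1.49), the Fc receptor genes Fcgr1 (1.30) and Fcgr3 (1.14), and the lipid receptor gene Cd36 (1.17). Lower were the inhibitory Fc receptor gene Fcgr2b (-1.74), Stab2, Mrc1, Pros1 and Itgam. Without Scrublet doublets Itgam stood at -0.45, and with cells thinned before the gate Fcgr3 stood at 0.94. Among members with 1000 to 5000 UMIs Fcgr1 stood at 0.48 and Pros1 at 0.22. Of 25 niche receptor genes, 5 were higher, among them the chemokine receptor gene Cxcr4 (1.88), Csf2rb (1.47) and Tgfbr1 (1.45), and the integrin gene Itgal was lower (-1.11, and -0.96 with TMM scaling). Tgfbr1 stood at 0.84 among members with 1000 to 5000 UMIs, where Itgal stood at -0.50. Itgal was also below the limit with equal weight per cell, at -0.94, and among members with at most 5% mitochondrial UMIs, at -0.91. Of 15 classical monocyte genes 5 were higher and 4 lower, and of 19 genes of oxidative stress and metallothioneins 4 were higher and 1 lower.

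In TAA+C30 against TAA, 3 of 21 immediate early and dissociation genes were called higher and none lower, and all 3 encode heat shock proteins. Hspa1b had 706 CPM in TAA+C30 and 234 in TAA, 3.01 times higher (2.53 to 3.58). Dnajb1, a co-chaperone gene, had 157 and 51.8 CPM, 3.04 times higher (2.06 to 4.39). With cells thinned before the gate no call of these 3 genes was left, with log2 ratios of -0.0289 for Hspa1a, 0.88 for Hspa1b and 0.62 for Dnajb1. Among members with a Clec4f UMI they were 0.63, 0.26 and -0.17. The metallothionein gene Mt2 had 13 UMIs in TAA+C30 and 17 in TAA, 6.06 times higher per UMI (2.71 to 13.2), but 1 member held 7 of the 13 and another 10 of the 17.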
